A study of Mus musculus with 6 samples.

Results

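The 39 genes described here make up the granulosa, ovulation and luteal program of the mouse ovary, and they were taken by name. No measured value enters the rule, although the names were chosen with earlier results of these data known. They were 39 of 22028 protein-coding genes. A gene was counted as marked in a library when a peak of H3K27me3 overlapped the promoter, defined as the bases within 2000 bp of any annotated transcript start site, and a peak elsewhere in the gene was counted separately as a gene body peak. The follicular genes (15) are those of the growing follicle, the steroidogenic genes (6) are those of gonadotropin-driven hormone synthesis, the ovulatory genes (13) are induced by the luteinizing hormone (LH) surge, and the luteal genes (5) belong to the corpus luteum.

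Granulosa cells surround the oocyte, respond to follicle-stimulating hormone (FSH) and make estradiol. After the LH surge they switch on a short-lived ovulatory program of prostaglandin synthesis, EGF-like ligands and matrix remodelling, and then luteinize into progesterone-producing cells. H3K27me3 is the trimethylated form of lysine 27 on histone H3, laid down by the Polycomb repressive complex PRC2, and it is known for broad domains over silent developmental genes, often at promoters rich in CpG dinucleotides. The comparison addressed here is whether the follicular genes, which are in use in growing follicles, and the ovulatory and luteal genes, which are used later, differed in the mark, and whether it changed after cyclophosphamide (CTX), an alkylating chemotherapy drug.

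H3K27me3 was profiled by CUT&Tag, in which an antibody directs a transposase to cut and tag the DNA around the histone mark. Granulosa cells came from 3-week-old female ICR mice primed with pregnant mare serum gonadotropin (PMSG), an FSH-like hormone, so both groups were gonadotropin-primed. The PBS group (3 libraries) received the vehicle and the CTX group (3 libraries) received CTX by intraperitoneal injection, and both were sampled at 6 h. Cells of 3 mice were pooled for each library, so each replicate was a pool. RNA was not part of these files, so whether a gene was active in these cells was not measured, and in a bulk sample fewer cells carrying the mark and less mark per cell cannot be told apart.

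The PBS libraries held 4244 to 6378 merged peaks and the CTX libraries held 2916 to 4993. Depth, read from the genome-wide background that the peak caller used, was 1375 to 1955 reads per Mb in PBS and 1120 to 1630 in CTX. Peaks of exactly 200 bp, the narrowest called, were 17.0% to 23.9% of the list in PBS and 29.3% to 41.8% in CTX. A promoter peak was present at 7.11% to 9.07% of protein-coding genes in PBS and at 4.59% to 7.31% in CTX. As reference sets, 11 to 23 of 39 Hox genes, known Polycomb targets, and 0 to 2 of 82 ribosomal protein genes were marked per library. CTX replicate 3 was the shallowest library and had the shortest peak list. Depth and peak number were lower on average in CTX, and their part in the results was not tested.

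Few of the program genes carried the mark, and so did few of all protein-coding genes. Depending on the call, the share of members lay above or under that of all protein-coding genes. A promoter peak was found in at least 1 library at 7 of 39 members (17.9%), and the same call was made for 11.9% of all protein-coding genes. Without PBS replicate 1 the count was 4 of 39 (10.3%) against 11.0% of all protein-coding genes. In at least 2 libraries the call was made for 2 of 39 members (5.13%), Rspo1 and Runx2, against 8.74% of all protein-coding genes. In all 6 libraries it was made for 1 of 39 (2.56%), Rspo1, against 3.5%. When gene body peaks were counted too, 9 of 39 members (23.1%) had a peak in at least 1 library, against 18.1%. The remaining 30 members, among them all 6 steroidogenic genes, had no peak in the promoter or gene body in any library.

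**Figure D1:**
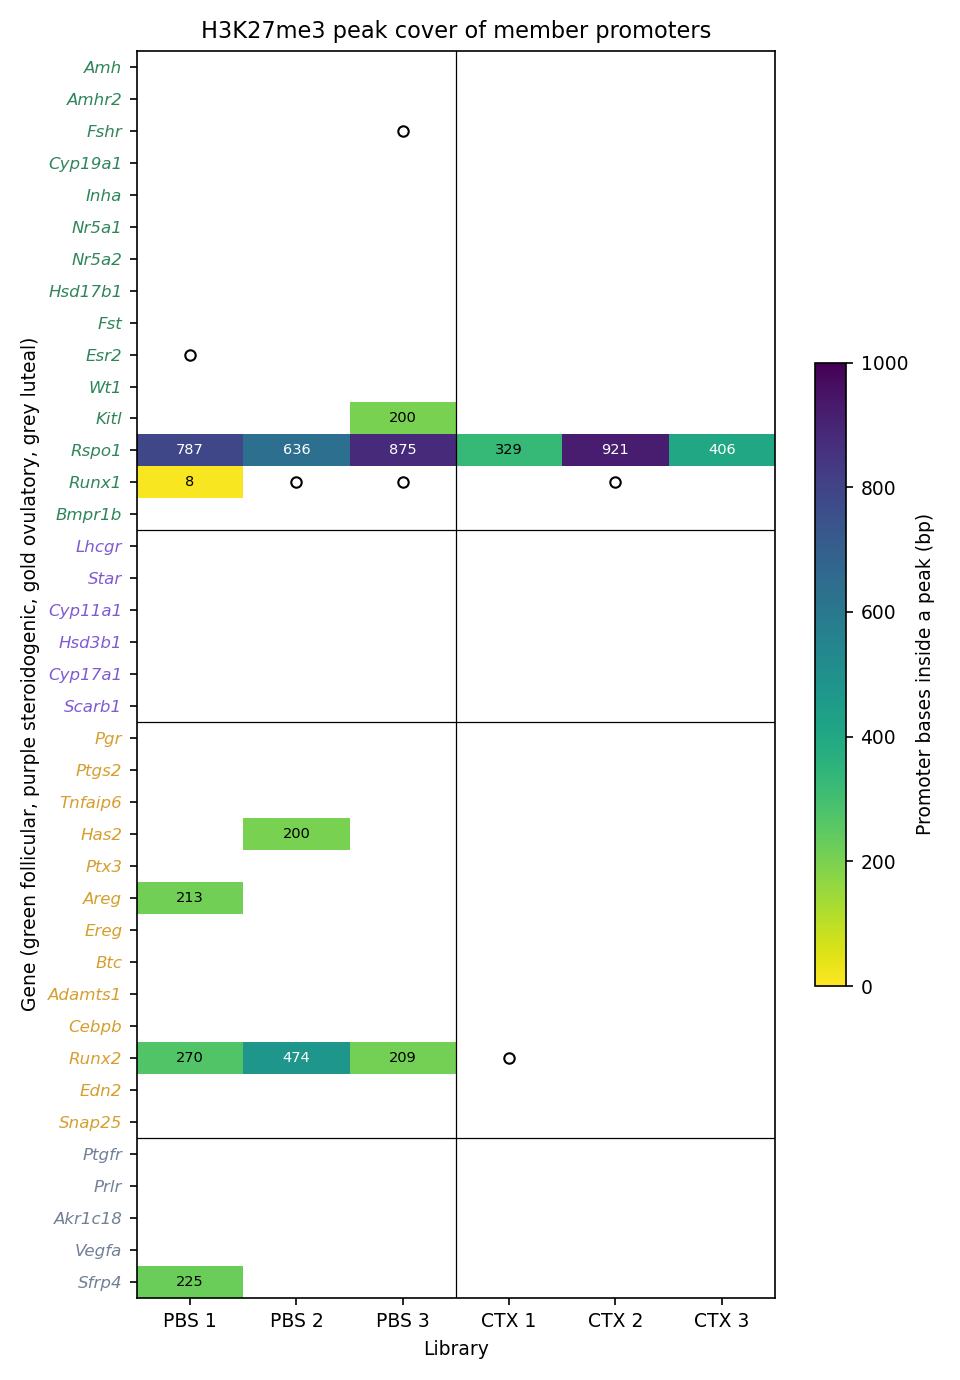
Promoter bases inside an H3K27me3 peak (colour and number, bp) for each of the 39 genes (rows) in each of the 6 libraries (columns). Open circles mark a gene body peak without a promoter peak. Rspo1 is filled in all 6 libraries and Runx2 in the 3 PBS libraries, and most rows are empty.

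The sequences under the peaks that recurred in at least 3 libraries are shown because the results rest on them. Each is the stretch shared by the peaks of every library that called the site, in the mm10 (GRCm38) build, read 5′ to 3′ on the strand of the gene, with CpG dinucleotides in capitals. The first site lies before the start of Rspo1 at chr4:124985404-124985639 (plus strand) and was called in the 3 PBS libraries. The second lies inside Rspo1 at chr4:124986948-124987242 (plus strand) and was called in all 6 libraries. The Runx2 site lies at chr17:44738419-44738589 (minus strand) in an intron of the long transcripts and was called in the 3 PBS libraries. The Runx1 site lies at chr16:92699471-92699665 (minus strand), also in an intron of the long transcripts, and was called in 3 PBS libraries and in CTX replicate 2.
Rspo1 site before the start: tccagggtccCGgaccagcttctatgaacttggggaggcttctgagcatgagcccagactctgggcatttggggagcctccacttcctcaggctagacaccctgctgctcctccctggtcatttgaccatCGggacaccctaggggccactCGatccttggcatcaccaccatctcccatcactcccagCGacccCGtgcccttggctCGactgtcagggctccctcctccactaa
Rspo1 site after the start: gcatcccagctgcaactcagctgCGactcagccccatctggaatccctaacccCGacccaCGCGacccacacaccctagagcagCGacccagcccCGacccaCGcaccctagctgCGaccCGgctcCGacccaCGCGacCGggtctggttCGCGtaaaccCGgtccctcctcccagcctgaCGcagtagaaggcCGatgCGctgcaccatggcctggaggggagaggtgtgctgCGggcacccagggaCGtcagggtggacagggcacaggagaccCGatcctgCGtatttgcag
Runx2 site: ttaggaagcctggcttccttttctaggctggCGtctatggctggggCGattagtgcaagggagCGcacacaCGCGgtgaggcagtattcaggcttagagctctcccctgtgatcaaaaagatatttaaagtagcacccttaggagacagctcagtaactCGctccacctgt
Runx1 site: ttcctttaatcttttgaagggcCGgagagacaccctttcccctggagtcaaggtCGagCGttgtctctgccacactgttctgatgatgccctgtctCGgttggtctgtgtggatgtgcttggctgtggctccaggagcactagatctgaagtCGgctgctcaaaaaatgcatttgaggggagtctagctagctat

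The site after the Rspo1 start held 23 CpG dinucleotides in 295 bases, with a ratio of observed to expected CpG of 0.71. The site before the start held 6 in 236 bases, with a ratio of 0.29. The Runx2 site had a ratio of 0.52 over 171 bases and the Runx1 site a ratio of 0.39 over 195 bases. Only the first of these was dense in CpG, and the other 3 were recurrent without it. No base of the Rspo1 site before the start or of the Rspo1 site after it lay in a coding exon or untranslated region, and the site after the start overlapped an exon of Gm12930, an antisense noncoding gene on the opposite strand.

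Rspo1 was the one member with a promoter peak in every library. It encodes R-spondin 1, a secreted amplifier of WNT signalling that is needed for ovarian development. The gene (ENSMUSG00000028871.7) spans chr4:124986430-125009099 on the plus strand, with 2 annotated start sites. Peaks covered 787, 636 and 875 bp of its promoter in PBS replicates 1, 2 and 3, and 329, 921 and 406 bp in CTX replicates 1, 2 and 3. CTX replicate 2 had the widest cover of all 6 libraries and the other CTX libraries the narrowest, so the groups overlapped. The means were 766 ± 121 bp in PBS and 552 ± 322 bp in CTX (SD, n = 3 each), and the difference of -214 bp was within that spread (2-sided exact permutation test, p = 0.4; adjusted p = 0.781 over 2631 genes with any promoter peak). With 3 libraries a group this test cannot give a p below 0.1. The size of the difference rested on single libraries: it was -399 bp without CTX replicate 2 (p = 0.1 in the same exact test), -102.5 bp without CTX replicate 1 (p = 0.7) and -141 bp without CTX replicate 3 (p = 0.7). With peaks within 1000 bp joined it was -49 bp (exact permutation p = 1).

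The site after the Rspo1 start was the part of that cover shared by all libraries. Its summits lay 572 to 744 bp after the start in the 6 libraries. Whole-number pileups, the reads stacked at the summit, were 60, 49 and 57 in PBS and 37, 43 and 31 in CTX. The peak ranked between the 86.8th and 94.8th percentile of its own library's list by q-value, so it was one of the stronger peaks everywhere. The local background that the caller set against it was 28.6 to 39.3 times the genome-wide background, which describes a neighbourhood of high coverage around the sharp peak.

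The site before the Rspo1 start was called in PBS libraries only, a pattern whose frequency over all sites was not counted. It was called with pileups of 43, 33 and 31 in PBS replicates 1, 2 and 3, with summits at -1048, -977 and -764 bp from the start (negative is upstream), and in no CTX library. CTX replicate 2 instead had a peak 1753 bp after the start with a pileup of 29. All of these peaks also fell in the promoter window of Gm12930, and the data do not assign them to either gene.

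At the site after the start the pileup was called in every library and could be compared directly. Divided by the library's own genome-wide background, it was 153, 178 and 179 in PBS and 129, 132 and 138 in CTX. Every CTX library lay below every PBS library, with means of 170 ± 14.4 and 133 ± 4.84 (SD, n = 3 each) and a CTX to PBS ratio of 0.782 (2-sided exact permutation test, p = 0.1, the smallest this design allows). Among 771 genes with a usable promoter pileup in all 6 libraries, 39.3% showed the same separation downward and 1.43% upward, and the median ratio was 0.822 with quartiles of 0.759 and 0.903. The ratio at Rspo1 was therefore inside the middle range of marked genes, and 34.0% of them had a ratio as low or lower. This measure was added after the values were seen.

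The absence of the site before the Rspo1 start from CTX was set beside depth. When the PBS pileup at the site before the start was scaled to each CTX library's depth, it came to 31.3, 35.6 and 24.4 reads in CTX replicates 1, 2 and 3. The smallest pileups that would have been called there at the same relative background were 26, 28 and 22 reads. The PBS pileups were those of called peaks, so they lay above their own limits by selection, and neither set of values carries counting error. At the median ratio of marked genes, 0.822, the scaled pileup would have been 25.7, 29.2 and 20.1 reads. That is below these limits in CTX replicates 1 and 3 and just above in CTX replicate 2. The limits kept the PBS relative background, and a lower background would lower them. At the site after the start the background was 36.7, 38.2 and 39.3 times the genome-wide one in PBS, and 31.1, 33.6 and 28.6 times in CTX. The comparison therefore does not settle whether the site would have been called.

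**Figure D2:**
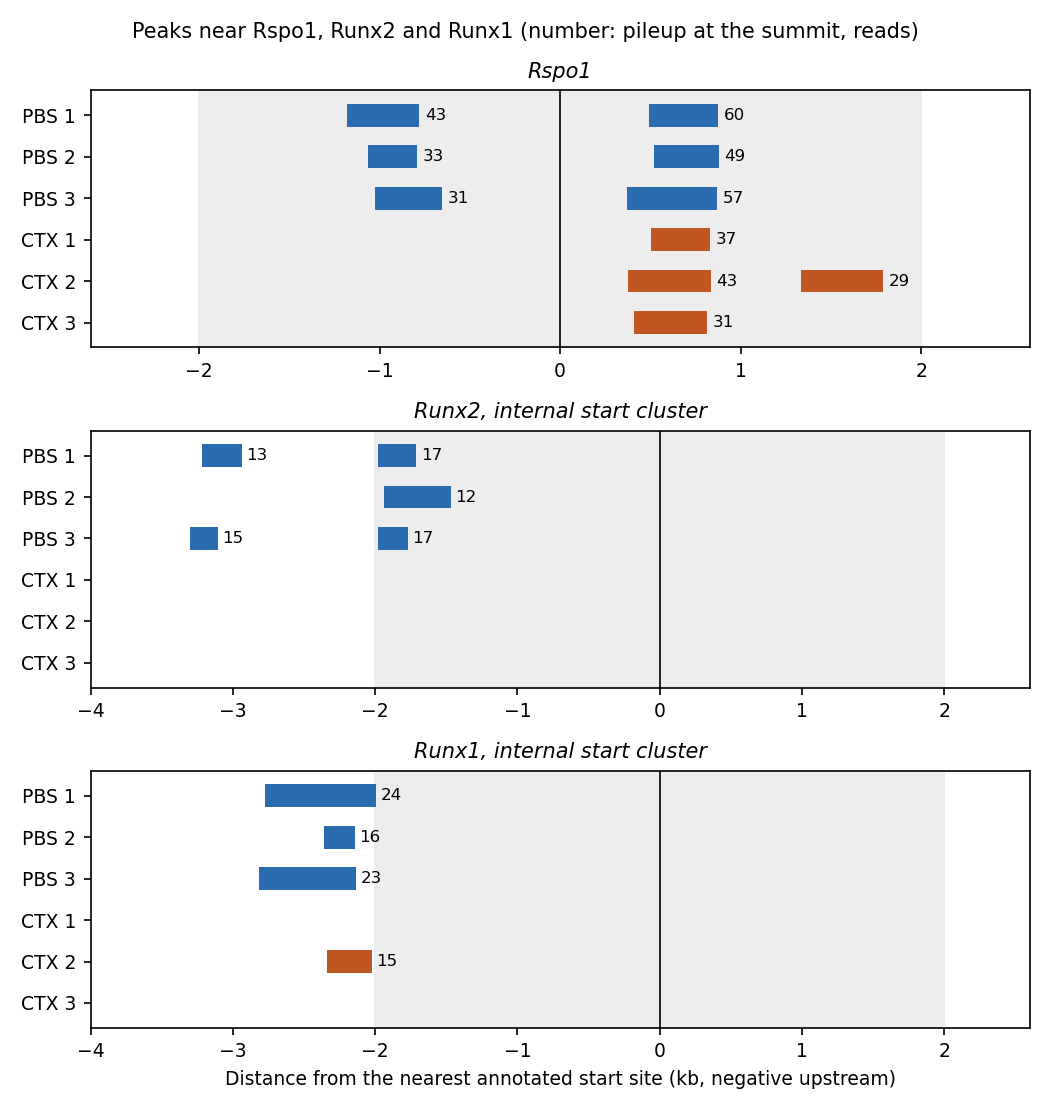
Peaks near Rspo1, Runx2 and Runx1 in each library (rows) by distance from the nearest annotated start site (kb, negative upstream); bars are peaks, blue for PBS and orange for CTX, the number is the pileup in reads and grey is the 2000 bp window. The Rspo1 site after the start is present in 6 of 6 libraries, the Runx2 site in the 3 PBS libraries only, and the Runx1 site lies at or just beyond the edge of the window.

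Runx2 was the one member marked in every PBS and no CTX library (1 of 39, or 2.56%), a call made for 0.395% of all protein-coding genes. No member had the opposite pattern, which was 0% of all protein-coding genes. Runx2 encodes a RUNT-domain transcription factor induced in granulosa cells after the LH surge. The gene (ENSMUSG00000039153.16) spans chr17:44495987-44814797 on the minus strand and has 11 annotated start sites. Peaks covered 270, 474 and 209 bp of its promoter windows in PBS replicates 1, 2 and 3 and 0 bp in each CTX library. The groups did not overlap, the difference of means was -318 bp (PBS 318 ± 139 bp, SD, n = 3), and the 2-sided exact permutation p was 0.1, the smallest possible (adjusted p = 0.514 over 2631 genes, of which 512 reached the same p).

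The Runx2 peaks were weak and stood away from the gene's 5′ end. Their summits lay at -1877, -1685 and -1869 bp from an internal start site, near the window edge, and 76272 to 76464 bp into the gene from the 5′ end, which itself was unmarked. Pileups were 17, 12 and 17 reads, and the ranks in the libraries ran from the 13.5th to the 45.6th percentile. A second PBS peak lay at -2985 and -3127 bp from the same start in PBS replicates 1 and 3, with pileups of 13 and 15. CTX replicate 1 had a single peak elsewhere in the gene body, with a pileup of 6. Scaled to CTX depth, the PBS pileup came to 13.4, 15.3 and 10.5 reads, and the smallest that would have been called was 12, 12 and 10 reads. At the median ratio of 0.822 the scaled pileup would have been 11.0, 12.5 and 8.62 reads. That is below these limits in CTX replicates 1 and 3 and just above in CTX replicate 2. The limits kept the PBS relative background, which was not known for CTX at this site, and a lower background would lower them. Runx2 was no longer marked in every PBS library with a window of 1000 bp, with the gene's 5′ end as the only start, at a q-value of at most 0.01 or 1e-05, or with lists of equal length.

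**Figure D3:**
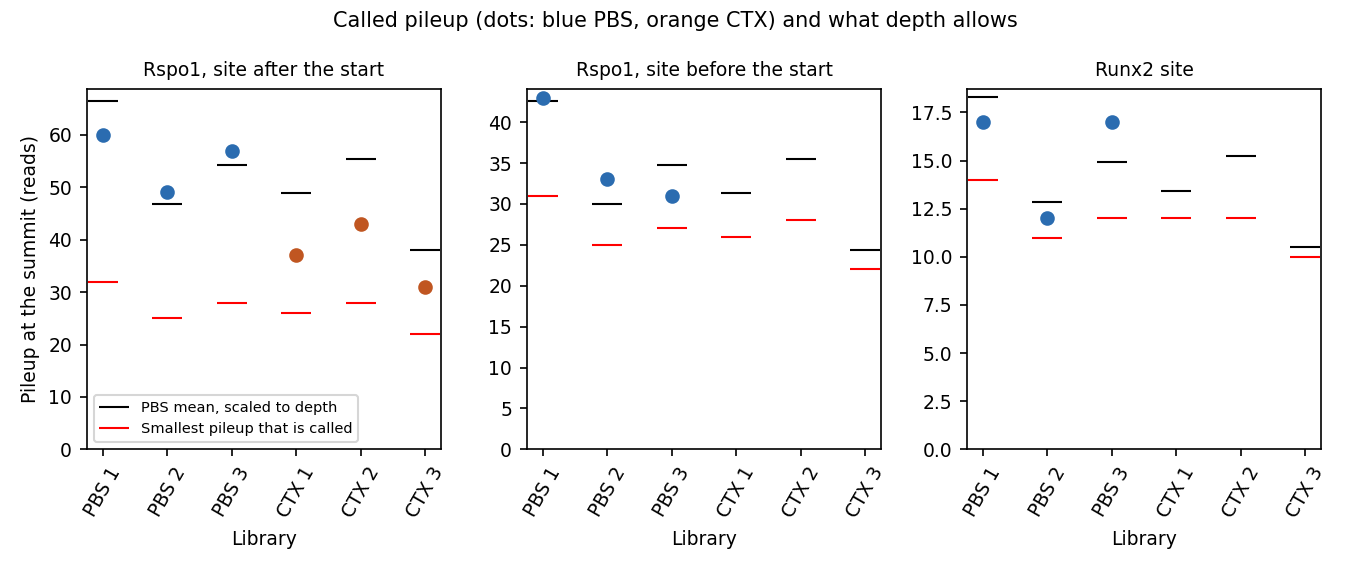
Pileup at the summit (reads, dots, blue PBS and orange CTX) at 2 Rspo1 sites and the Runx2 site in each library. The black dash is the PBS mean scaled to that library's depth. The red dash is the smallest pileup that would have been called at the PBS relative background. At the Runx2 site the dashes lie close together in the CTX libraries (13.4 and 12, 15.3 and 12, 10.5 and 10 reads), and at the Rspo1 site after the start the CTX dots lie below the black dash and above the red one.

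Runx1, a follicular member and the other RUNT-domain factor in the set, showed a recurrent site that the window mostly missed. The peaks had summits at -2708 to -2200 bp from an internal start in PBS replicates 1, 2 and 3 and in CTX replicate 2, with pileups of 24, 16, 23 and 15. Only the PBS replicate 1 peak reached the window, by 8 bp. With a window of 5000 bp, 3 PBS and 1 CTX library were marked. The scaled PBS pileup was 18.3 reads in CTX replicate 1 and 14.3 in CTX replicate 3, where 13 and 12 would have been called. At the median ratio of 0.822 it would have been 15.1 and 11.8 reads, above the limit in the first and below it in the second. These limits also kept the PBS relative background, and a lower background would lower them. The 5′ end of the gene's longest transcript had no peak.

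Among the other follicular genes, Kitl, which encodes the KIT ligand that supports the oocyte, had a promoter peak in PBS replicate 3 only, 200 bp wide with a pileup of 12. Fshr, the FSH receptor, had 1 gene body peak in PBS replicate 3 with a pileup of 5. Esr2, the main estrogen receptor of granulosa cells, had 1 in PBS replicate 1 with a pileup of 4, the smallest pileup called in any library. Both gene body peaks were 200 bp wide, and the local background beneath them equalled the genome-wide background. No peak was found at Amh and Amhr2, which encode anti-Müllerian hormone and its receptor, at Cyp19a1 (aromatase) or Hsd17b1, which complete estradiol synthesis, or at Inha and Fst, which encode the inhibin alpha subunit and the activin binder follistatin. Nor was one found at the nuclear receptor genes Nr5a1 and Nr5a2, at the transcription factor gene Wt1 or at the BMP receptor gene Bmpr1b. In total 3 of 15 follicular genes were marked at the promoter in at least 1 library (20%) and 1 of 15 in at least 2 (6.67%), beside 11.9% and 8.74% of all protein-coding genes.

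None of the 6 steroidogenic genes was marked. They comprised Lhcgr, the LH receptor, Star, which moves cholesterol into mitochondria, Cyp11a1 and Hsd3b1, which make progesterone from cholesterol, Cyp17a1, which makes androgens and is used in theca cells, and Scarb1, the HDL receptor that supplies cholesterol. Across the 6 libraries the nearest peak to a steroidogenic gene's 5′ end lay at a median of 167 to 377 kb, by gene. A promoter peak in at least 1 library was present at 11.9% of all protein-coding genes. A set of 6 genes is too small to tell none marked from that share.

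Of the 13 ovulatory genes, 3 were marked in at least 1 library (23.1%, beside 11.9% of all protein-coding genes), and besides Runx2 each of these rested on 1 library. Has2, the hyaluronan synthase of cumulus expansion, had a 200 bp peak in PBS replicate 2 with a pileup of 9, which also lay in the promoter window of the opposite-strand gene Has2os. Areg, which encodes the EGF-like ligand amphiregulin, had a 213 bp peak over coding sequence in PBS replicate 1 with a pileup of 11. The other EGF-like ligand genes, Ereg and Btc, had none. Pgr (the progesterone receptor), Ptgs2 (the inducible prostaglandin synthase), the cumulus matrix genes Tnfaip6 and Ptx3, the protease gene Adamts1, the transcription factor gene Cebpb, the endothelin gene Edn2 and the vesicle fusion gene Snap25 had no peak either.

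Of the 5 luteal genes, Sfrp4, which encodes a secreted WNT modulator, had a promoter peak in PBS replicate 1 only, 225 bp wide with a pileup of 7. Ptgfr, the prostaglandin F receptor through which luteolysis is triggered, Prlr, the prolactin receptor, Akr1c18, which inactivates progesterone, and Vegfa, the angiogenic factor, had no peak. The 5 members marked in a single library were marked in a PBS library, or 12.8% of members against 2.12% of all protein-coding genes. Of the 705 protein-coding genes marked in a single library, 66.4% were marked in a PBS library, and 3 of the 5 members came from PBS replicate 1, which had the longest list.

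The contrast between follicular and later genes did not hold one direction across the PBS libraries. The share of the 15 follicular genes with a promoter peak was 13.3%, 6.67% and 13.3% in PBS replicates 1, 2 and 3 and 6.67% in each CTX library. The share of the 18 ovulatory and luteal genes was 16.7%, 11.1% and 5.56% in PBS and 0% in each CTX library. The later genes were thus above the follicular genes by 3.33 and 4.44 percentage points in PBS replicates 1 and 2, while in PBS replicate 3 the difference was -7.78 points. In every CTX library it was -6.67 points, which is Rspo1 alone against no later gene. Each step of these shares is a single gene, and the mean of the difference over the 6 libraries was -3.33 points. By group it was 0 ± 6.76 points in PBS (SD, n = 3) and -6.67 in CTX, so the pooled value came from the CTX libraries.

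Over all members, the promoter was marked at 5, 3 and 3 genes in PBS replicates 1, 2 and 3, and at 1 gene in each CTX library, Rspo1 in every case. The mean was 3.67 ± 1.15 in PBS and 1 ± 0 in CTX (SD, n = 3 each), a difference of -2.67 genes. As a share this was 9.40% ± 2.96 against 2.56%, beside 8.30% ± 1.04 and 6.02% ± 1.37 of all protein-coding genes. No p was computed, since the genes had been chosen with results known. When each list was cut to its 2916 strongest peaks, the length of the shortest list, the difference was -1 gene. The share of all protein-coding genes was not counted on the cut lists, so this value has no background beside it.

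**Figure D4:**
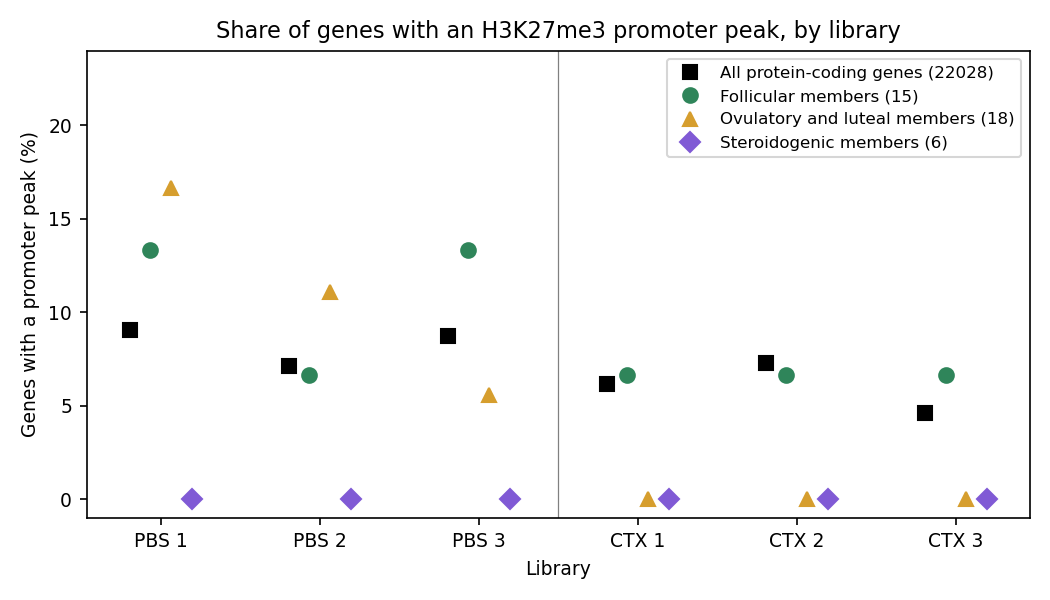
Percent of genes with an H3K27me3 promoter peak in each library (x axis) for all protein-coding genes and 3 member groups. The follicular share stays at 6.67% in CTX because of Rspo1, the share of ovulatory and luteal genes is 0% in the CTX libraries, and the steroidogenic share is 0% throughout.

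Distance gave a measure for the genes without a peak. From the gene's 5′ end to the nearest peak, taking the median over the 6 libraries, the members lay at a median of 353 kb and all protein-coding genes at 243 kb. The follicular genes (229 kb) and the steroidogenic genes (215 kb) lay near the value for all genes, and the ovulatory (800 kb) and luteal (777 kb) genes lay farther. Only Rspo1 (0.45 kb) was within 10 kb, or 2.56% of members against 8% of all genes, and 71.8% of members lay beyond 200 kb against 55.3%. Pgr was the farthest, at 4681 kb.

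The distances are a description and not a set of independent values. Ereg and Areg lie 65.0 kb apart on chromosome 5 and Btc 263 kb from Areg, so the 3 share 1 neighbourhood, at 935, 870 and 800 kb from the nearest peak. Lhcgr and Fshr are 409 kb apart on chromosome 17. Peak number differed between libraries, and for Areg, Has2 and Sfrp4 the distance ran from 1.35, 1.28 and 0.308 kb in the library with the peak to 1251, 1386 and 2358 kb in the library farthest from it.

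**Figure D5:**
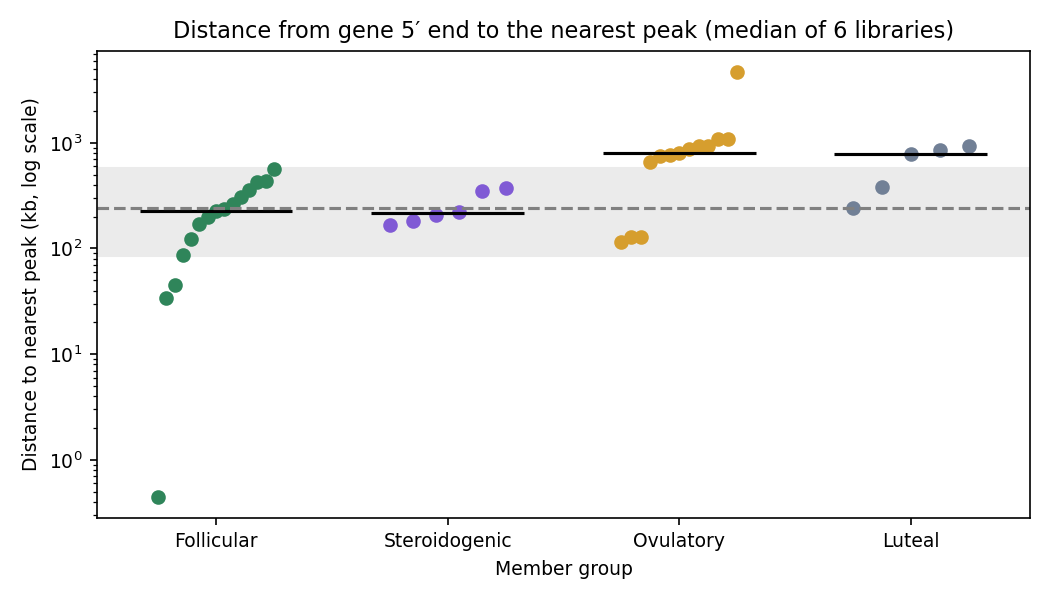
Distance from each member's 5′ end to the nearest peak (kb, log scale, median of 6 libraries) by group, with a line at each group's median. The dashed line and grey band are the median and quartiles of all protein-coding genes. Most ovulatory and luteal genes lie above the band, and Rspo1 is the single point below 1 kb.

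CpG content was set beside the mark because it varied widely among the members. Over the 2000 bp either side of the 5′ end the ratio of observed to expected CpG had a median of 0.361 in members and 0.370 in all protein-coding genes, and 0.488 in genes marked in all 6 libraries. With all genes divided into tertiles of this ratio, a promoter peak in at least 2 libraries was present at 2.23% of genes in the lowest, 10.4% in the middle and 13.6% in the highest. The highest tertile held 14 members (Inha, Fst, Esr2, Wt1, Kitl, Rspo1, Bmpr1b, Pgr, Has2, Ptx3, Adamts1, Cebpb, Snap25 and Vegfa), of which 1 was marked in at least 2 libraries (7.14%). The lowest tertile held 13, among them 4 of the 6 steroidogenic genes (Star, Cyp11a1, Hsd3b1 and Cyp17a1), and Runx2 was the 1 marked. The ratio was taken at the 5′ end and the mark at any start site. For Runx2 it describes an unmarked 5′ end, and the marked site itself had a ratio of 0.52. The highest tertile thus held unmarked follicular, ovulatory and luteal genes as well as Rspo1.

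A pair of unmarked promoters shows the 2 ends of that range, 250 bases before the start as RefSeq gives them on GRCm38.p6, with CpG in capitals. Cebpb, an ovulatory gene, has 41 CpG dinucleotides at chr2:167688665-167688914 (plus strand), and Hsd3b1, a steroidogenic gene, has 1 at chr3:98859795-98860044 (minus strand). Neither had a peak in any library.
Cebpb: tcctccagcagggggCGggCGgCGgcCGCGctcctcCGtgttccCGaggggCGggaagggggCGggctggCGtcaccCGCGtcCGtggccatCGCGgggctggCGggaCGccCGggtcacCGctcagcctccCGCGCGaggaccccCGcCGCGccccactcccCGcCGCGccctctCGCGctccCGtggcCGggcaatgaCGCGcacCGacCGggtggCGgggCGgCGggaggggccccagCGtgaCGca
Hsd3b1: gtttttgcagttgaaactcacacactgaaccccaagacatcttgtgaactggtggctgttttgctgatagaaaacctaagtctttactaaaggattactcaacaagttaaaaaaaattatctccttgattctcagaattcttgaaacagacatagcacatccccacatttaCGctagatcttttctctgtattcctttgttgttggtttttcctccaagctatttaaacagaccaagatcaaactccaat

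RefSeq promoters of 300 bases were matched for 27 of the 39 members. The half-site AAGGTCA, the letters bound by the NR5A receptors, was searched on both strands and occurred in 1 of 27 (Amhr2, 3.70%) and in 3.93% of 16522 protein-coding promoters. The cAMP response element TGACGTCA was searched likewise and occurred in 1 of 27 (Areg, 3.70%) and in 2.41% of all. A match is a match of letters and not a measured site.

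Other genes of the same program gave similar counts. Of 15 further follicular genes, 3 had a promoter peak in at least 1 library (20%), of 18 ovulatory genes 4 (22.2%) and of 18 luteal genes 3 (16.7%), beside the 11.9% of all genes. Nr4a2, a nuclear receptor gene induced by the LH surge, was covered over 758, 353 and 736 bp in PBS, and over 202, 381 and 0 bp in CTX. Flt1, which encodes a VEGF receptor, was covered over 1445, 980 and 1958 bp in PBS and 982, 1157 and 224 bp in CTX, and it was the only one of these 51 genes marked in all 6 libraries.

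Markers of other cells were read for the mark only. Among theca and stroma markers, 6 of 8 (75%) had a promoter peak in at least 1 library, beside 11.9% of all protein-coding genes. Their cover summed over the list was 924 to 2163 bp in PBS and 203 to 921 bp in CTX, and Gli3 and Acta2 were at 0. Insl3, a theca hormone gene, was covered over 386, 362 and 375 bp in PBS and 0, 350 and 207 bp in CTX. Gli1, a hedgehog target, was covered over 420, 397 and 595 bp in PBS and 0 bp in each CTX library, the same presence pattern as Runx2. Col1a1, a collagen gene of stroma, was covered over 347, 165 and 336 bp in PBS and 0, 160 and 163 bp in CTX. Of 11 oocyte markers 1 was marked (9.09%), of 5 immune markers 1 (20%) and of 4 endothelial markers 0, and lists this short cannot be told from 11.9%. Flt1, the VEGF receptor gene marked in all 6 libraries, was counted in the luteal list and not among the endothelial markers. The oocyte sum was 0 to 288 bp in PBS and 0 in CTX. The immune sum was 0 in PBS and 0 to 275 bp in CTX. A peak marks chromatin and not expression, so these lists do not give the share of other cells, and their part in the results was not tested.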

How the data were processed

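Peak lists were analysed for 6 H3K27me3 CUT&Tag libraries of granulosa cells, 3 PBS and 3 CTX. The authors trimmed reads with fastp, aligned them to mm10 with BWA, removed reads of low mapping quality and duplicates, and called peaks per library with MACS2 2.1.0 at a q-value threshold of 0.05; whether a control library was used is not given in the sources used here. The deposited columns hold a score, a fold (a ratio over local background), −log10 p and −log10 q. Overlapping or touching intervals were merged. Start sites came from GENCODE on GRCm38, and 1 overlapping base was enough for a promoter call. Pileup and background were solved from the deposited fold and −log10 p, taking the MACS2 pseudocount of 1; a whole-number pileup gave the −log10 p to within 0.002 plus 0.0005 of its value for 99.8% or more of summits, and every printed pileup rests on this. Reads per Mb assume an extension of 200 bp, and counting error alone limits each pileup. Broad, low H3K27me3 domains can be missed in such narrow peak calls.

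Promoter cover per gene was compared by the exact permutation test over libraries (Python 3.11.15, SciPy 1.17.1, pysam 0.24.0), with Benjamini-Hochberg adjustment; the scripts were tested on simulated data. All 39 members are named, and those marked in at least 2 libraries are given per library. Genes of the further lists are named where marked in every library of a group. The members and lists were chosen with earlier results of these data known. The study describes each library as a pool of 3 mice and a biological replicate; the labels give only replicate numbers. The p-values measure the spread between these libraries. Alternatives were other windows, thresholds, overlaps and start sites, lists cut to equal length, joined peaks, repeat-rich peaks left out, libraries left out, and a replicate block.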

Additional observations from a re-analysis of the deposited data

How the results depend on the processing

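The difference in members with a promoter peak (-2.67) shrank to -0.333 with a 1000 bp window, -0.667 at a q-value of at most 1e-05, -1 with equal peak numbers and -1.33 with the gene's 5′ end as the only start, and none of the alternatives reversed it. The number of members marked in at least 1 library (7) fell to 2, 3 and 4 with the 1000 bp window, the q-value of 1e-05 and equal peak numbers, and was 4 to 7 with 1 library left out, the 4 being without PBS replicate 1, which alone marked Runx1, Areg and Sfrp4. The number marked in every PBS and no CTX library (1, Runx2) was 0 with the 1000 bp window, at q-values of at most 0.01 and 1e-05, with equal peak numbers and with the gene's 5′ end only. The share of all protein-coding genes was not counted under these settings. Whether these falls were particular to the members was therefore not tested. With libraries left out in turn the difference in members was -3 to -2 and the later minus follicular share -4.89 to -2.44 points. The share difference averaged 0 points in PBS and -6.67 in CTX, so its negative sign came from the CTX libraries. The number marked in every CTX and no PBS library was 0 throughout. The number in every PBS and no CTX library was 1, and it could not fall, since leaving a library out only loosens that call.

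Between libraries of the same replicate number the correlations of deviations were 0.00526, -0.296 and -0.124. Libraries of different number were not compared and depth was not adjusted for. These values therefore cannot settle whether the numbers pair the libraries. With groups of equal size a replicate block cannot change a difference of means, so the -2.67 under it is not a check. At the Runx2 site the depth-scaled PBS pileups (13.4, 15.3 and 10.5 reads) exceeded the smallest pileups that would have been called in CTX (12, 12 and 10 reads). At the median ratio of 0.822 they would have been 11.0, 12.5 and 8.62 reads, below the limit in CTX replicates 1 and 3. The limits kept the PBS relative background, and a lower background in CTX would lower them. The PBS pileups were those of called peaks, and none of these values carries counting error. The part of depth in the CTX absences was not tested.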

Other observations

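After the peaks near Runx1 and Runx2 were seen, the remaining gene of the family was looked up. Runx3, which encodes the other RUNT-domain transcription factor, had a promoter peak in all 6 libraries, covering 575, 720 and 564 bp in PBS replicates 1, 2 and 3 and 468, 604 and 528 bp in CTX replicates 1, 2 and 3. Peaks anywhere between the ends of the gene, promoter peaks inside it included, covered 3958, 3703 and 2845 bp in PBS and 1567, 2982 and 1569 bp in CTX. Runx3 was thus marked in every library, a call made for 3.5% of all protein-coding genes, whereas Runx1 and Runx2 were not. Runx3 was chosen because of the peaks near Runx1 and Runx2 and carries no test.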
